A study of Bactrocera oleae with 8 samples.

Results

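Contig04633 is a *Bactrocera oleae* array sequence that the study's annotation describes as a leucine rich protein. It was selected on its log2 ratio between larvae fed on green olives and larvae reared on artificial diet, which was the highest of all contigs. The array also carried an entry for the opposite strand of the same sequence, rc_contig04633, which was included by name. These are 2 of the 20516 contig entries on the array. Each had 3 probes, so that 6 of 59976 probes are described here.

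RNA of whole 2nd-instar larvae of *B. oleae*, the olive fruit fly, was hybridized to 8 two-colour Agilent arrays. Larvae fed on green olives were taken from unripe Kalamon fruit picked in September in an orchard in Heraklion. Larvae fed on black olives came from ripe fruit of the same orchard in January. Larvae on artificial diet hatched from eggs laid in wax by laboratory-held females that had emerged from olives of that orchard, and ate a medium of yeast, soy hydrolysate, sugar, cellulose and olive oil. Each extract pooled 20 larvae, and pools stand as the replicates. No strain, genotype or age beyond the instar is given. Green olive RNA carried Cy5 on all 8 arrays, and the Cy3 partner was black olives on 4 arrays and artificial diet on the other 4. The dyes were never exchanged, so feeding on green olives and the Cy5 dye cannot be told apart, whereas black olives and artificial diet share a dye. Season and rearing also cannot be told apart from the food.

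Proteins rich in leucine often hold repeats that bind other proteins, and such repeats occur in receptors of innate immunity as well as in structural and secreted proteins. Here the name rests on sequence likeness alone. The closest match listed for contig04633 is a hypothetical protein of *Escherichia coli*, a bacterium, and not an insect protein, while rc_contig04633 has no match listed. Olive fly larvae carry the bacterium *Ca. E. dacicola* in the caeca of the midgut, and total RNA of whole larvae can hold RNA of gut bacteria, although the labelling kit primes from the poly(A) tails that eukaryotic messenger RNA carries. Which organism the contig was transcribed from was not tested. Probe and contig sequences were not analysed here.

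The share of contig spots that passed the scanner software's background test was 60.6 to 64.1% in green olives (8 channels), 56.9 to 67.2% in black olives (4 channels) and 65.5 to 66.9% in artificial diet (4 channels). No spot was saturated. Muscle-specific actin (contig01036) and tropomyosin (contig02423), which muscle holds at any stage and which thus do not check the larval stage, were above background in all 8 green olive, 4 black olive and 4 artificial diet channels. Among 29 contigs of general cell function with repeated probes, the median log2 fold change was -0.07 for green against black olives, 0.07 for green olives against artificial diet and 0.04 for black olives against artificial diet. Single contigs of this list spanned -1.24 to 2.99, -1.44 to 2.09 and -0.90 to 0.67 in these comparisons, and 1 was called, as higher in green than in black olives.

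Both entries were measured in every regime. For contig04633, 12 of 12 spots were well above background in green olives on the black olive arrays, as were 12 of 12 in black olives, 12 of 12 in green olives on the artificial diet arrays and 12 of 12 in artificial diet. The same counts held for rc_contig04633. The dimmest spot of contig04633 in artificial diet read 4.24 times its local background. No fold change of either entry is therefore a bound. In RNA of whole larvae, a change in the number of cells that hold a transcript and a change in its amount per cell cannot be told apart.

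The scanner intensities show the pattern before any normalization. Forward probe 1, in row 3 and column 160 of the array, read 157673, 107191, 181610 and 158250 in green olives on the black olive arrays, beside 23165, 17983.5, 24646 and 27024 in black olives. On the artificial diet arrays it read 69317, 157468, 135299 and 127639 in green olives, beside 618, 1929, 1682.5 and 2038 in artificial diet. All 8 green olive spots were brighter than all 4 black olive spots, and these were all brighter than the 4 artificial diet spots. Green olive spots are Cy5 readings and the others Cy3 readings. The median contig spot read 229 to 292 in green olives, 134 to 201 in black olives and 161 to 228.5 in artificial diet. The raw distance of green olives from the other regimes may thus hold a difference between dyes. Reverse-strand probe 2 (row 270, column 116) read 24905.5, 21475.5, 22595 and 20809 in green olives beside 4905, 4976.5, 3775 and 4012 in black olives. On the other arrays it read 24559.5, 24695, 26244 and 21903.5 in green olives beside 1304, 1007, 1242 and 1125.5 in artificial diet. The order of the regimes was the same as for the forward probe, with a smaller distance to artificial diet.

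**Figure D1:**
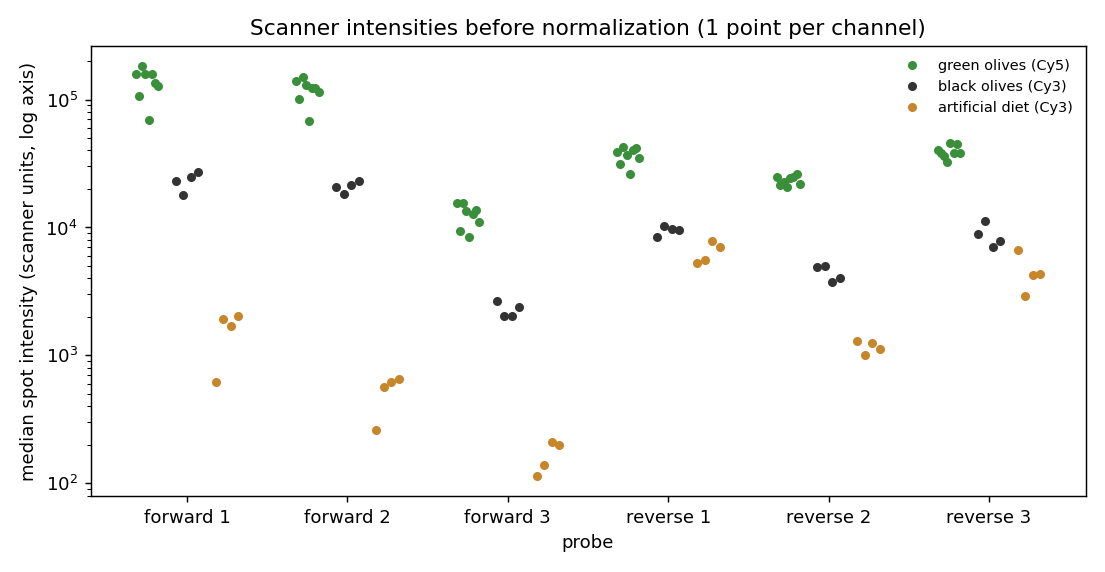
Median spot intensity in scanner units on a log axis for the 3 forward and 3 reverse-strand probes, with 1 point per channel in green olives (8 channels), black olives (4) and artificial diet (4). Before normalization the black olive points of each of the 6 probes lie above the artificial diet points. The gap is narrow for reverse-strand probes 1 and 3 (lowest black olive spots 8477 and 7023, highest artificial diet spots 7875 and 6653).

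Cy3 labelled the black olive and the artificial diet RNA alike, so these intensities can be set side by side without a difference between dyes. In each of the 6 probes the lowest black olive spot was brighter than the highest artificial diet spot. For forward probe 3 these spots read 2021 and 210.5. For reverse-strand probe 1 they read 8477 and 7875. These are readings of different arrays before normalization. After normalization the regimes overlapped for reverse-strand probe 3. Its log2 intensity was 12.73 on black olive array 3 and 13.12 on artificial diet array 1.

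Levels were then computed per channel as normalized log2 intensities, averaged over the probes of an entry. Contig04633 lay at 14.79 to 15.85 in the 8 green olive channels (median 15.69), at 13.54 ± 0.45 in black olives and at 9.30 ± 0.45 in artificial diet (SD, n = 4 each). In black olives the 4 channels read 14.05, 13.06, 13.26 and 13.77, and in artificial diet 8.63, 9.64, 9.43 and 9.49. The channels of artificial diet array 2 average 2 probes, since a spot of forward probe 2 was left out there. The 3 regimes did not overlap: the lowest green olive channel (14.79) stood above the highest black olive channel (14.05), and the lowest black olive channel (13.06) far above the highest artificial diet channel (9.64).

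Rc_contig04633 held the same order over a narrower span. Its level was 14.51 to 14.96 in the 8 green olive channels (median 14.77), 12.98 ± 0.35 in black olives and 11.93 ± 0.20 in artificial diet (SD, n = 4 each). The black olive channels read 13.44, 12.95, 12.58 and 12.94, and the artificial diet channels 12.22, 11.84, 11.90 and 11.75. The regimes again did not overlap, but the lowest black olive channel stood close to the highest artificial diet channel.

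**Figure D2:**
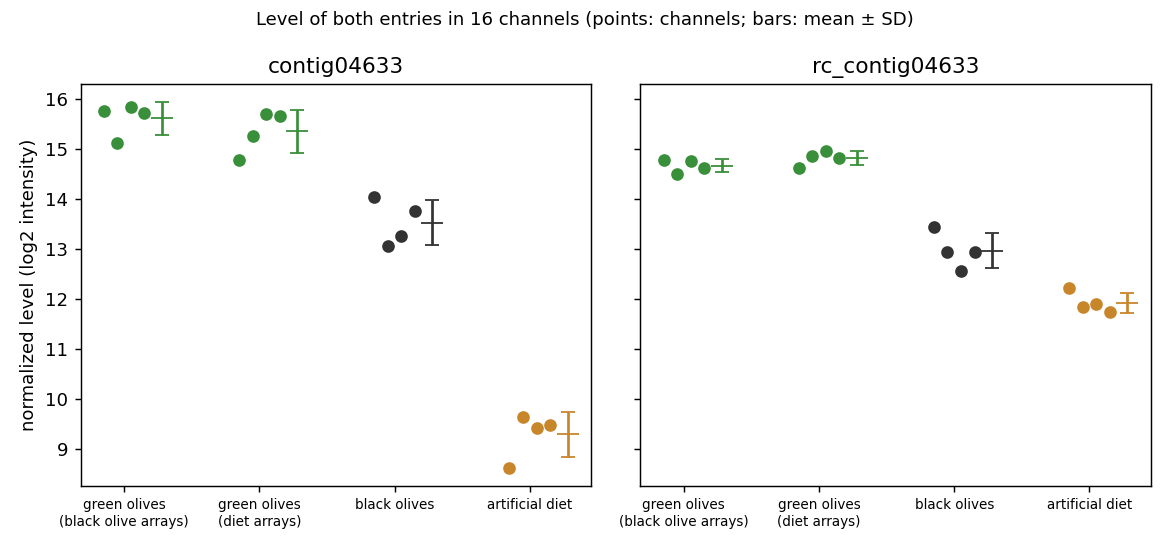
Normalized log2 intensity of contig04633 and rc_contig04633 in the 16 channels, with green olive channels split by the regime they shared an array with; points are channels and bars are mean ± SD of 4. Contig04633 averages 15.62 and 15.36 in green olives, 13.54 in black olives and 9.30 in artificial diet, against 14.67, 14.82, 12.98 and 11.93 for rc_contig04633.

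The comparison of green with black olives is the one tested. Its log2 ratios come from arrays that did not enter the choice of the contig, while its standard errors and p-values come from a model that shares its estimate of the spread with the artificial diet arrays. Contig04633 rose in larvae fed on green olives by a log2 fold change of 2.09 (4.25-fold, standard error 0.15, limma adjusted p = 0.000207). Its log2 ratios were 1.72, 2.07, 2.59 and 1.96 on the 4 arrays, and were thus above 0 on each. Rc_contig04633 rose by 1.69 (3.24-fold, standard error 0.15, limma adjusted p = 0.000498), with ratios of 1.34, 1.56, 2.19 and 1.69. Fitted on the 4 black olive arrays alone, both kept their calls, at limma adjusted p = 0.00705 for contig04633 and 0.00835 for rc_contig04633. Of all contigs, 2.25% were called in this comparison, 1.74% as higher and 0.512% as lower in green olives. A call needed an adjusted p under 0.05 together with a log2 fold change of more than 1 in either direction. Contig04633 ranked 65 and rc_contig04633 120 by log2 fold change. In all 6 probes array 3 gave the highest ratio and array 1 the lowest.

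The green olive RNA of this comparison may not be separate from that used to pick the contig, since the series describes 4 replicates of green olive larvae set against either regime. Across contigs, which are not independent replicates, deviations of green olive channels from their set means correlated at 0.90 between black olive array 2 and artificial diet array 1, 0.90 between arrays 3 and 2, 0.72 between arrays 1 and 3, and 0.85 between arrays 4 and 4. They were picked as the highest over all pairings of a black olive with an artificial diet array. The other pairings ran from -0.60 to -0.11. Only the black olive channels of the test are thus plainly outside the choice of the contig.

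Against artificial diet the values are given as a description, since this contrast chose the contig. Contig04633 was higher in green olives by 6.06 ± 0.29 on the log2 scale (SD, n = 4 arrays), a 66.7-fold difference. The 4 arrays gave 6.15, 5.63, 6.28 and 6.18. The value of array 2 rests on 2 probes, because the scanner software marked the Cy5 signal of forward probe 2 there as uneven, and that probe had the highest ratios on the other arrays. With such spots kept, array 2 gave 6.10 and the mean was 6.18 ± 0.08. Rc_contig04633 was higher in green olives by 2.90 ± 0.32 (SD, n = 4 arrays), or 7.44-fold, with 2.41, 3.03, 3.06 and 3.09 on the arrays. In this contrast 1.05% of contigs were called, 0.77% as higher and 0.283% as lower in green olives. Forward probe 3, the dimmest in artificial diet, had background-subtracted intensity ratios of 64.5 to 117 on the 4 arrays before normalization and a mean of 45.5-fold after background correction with an offset and loess. With an offset of 16 in place of 50 the log2 fold change of contig04633 was 6.21.

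The contigs next to contig04633 in this ranking had log2 fold changes of 5.95 (rc_contig07171), 5.43 (contig12892), 4.19 (r_contig00541_rc, a segment of contig00541 on the reverse strand), 3.98 (rc_contig04969) and 3.85 (rc_contig03638). On artificial diet arrays 1 to 4 contig04633 read 6.15, 5.63, 6.28 and 6.18, and rc_contig07171 5.62, 5.96, 6.10 and 6.11. Contig04633 was the lower only on array 2. Its value there rests on 2 probes, and was 6.10 with the uneven spot kept. The order of these contigs was not tested.

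Black olives also lay above artificial diet. The log2 fold change was 3.97 for contig04633 (15.7-fold, standard error 0.21) and 1.20 for rc_contig04633 (2.30-fold, standard error 0.21). These values share the artificial diet channels with the contrast that chose the contig and are likewise a description. Called contigs made up 0.936% in this contrast, 0.327% as higher and 0.609% as lower in black olives.

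The probes agreed in the comparison of the olives and spread out in that with artificial diet. Between green and black olives, the forward probes had mean log2 ratios of 2.08, 2.03 and 2.14 and the reverse-strand probes 1.51, 1.94 and 1.64. Between green olives and artificial diet, the forward probes had 5.83, 7.24 and 5.51 and the reverse-strand probes 1.97, 3.94 and 2.77. The SDs between arrays were 0.05 to 0.48, smaller than the distance between any forward and any reverse-strand mean against artificial diet. Each forward probe had a higher mean ratio than each reverse-strand probe in both comparisons. Against artificial diet this order is favoured by the choice of the contig.

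**Figure D3:**
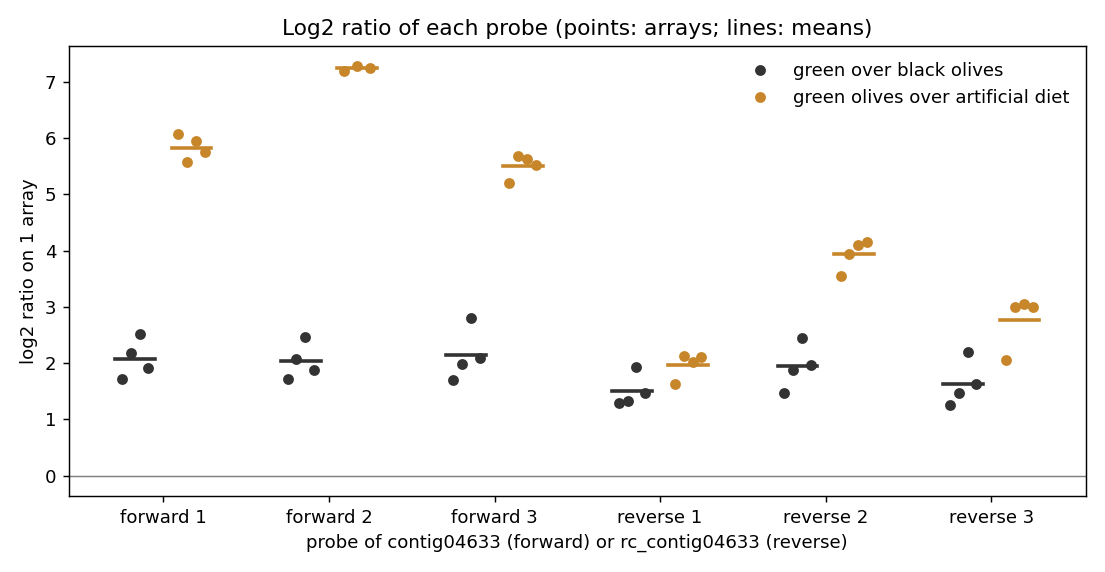
Log2 ratio on each array for the 6 probes, for green over black olives and for green olives over artificial diet; points are arrays and lines are means. The means span 1.51 to 2.14 for green over black olives and 1.97 to 7.24 for green olives over artificial diet.

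The distance between the strands was wide against artificial diet and narrow against black olives. Forward minus reverse, the log2 ratio of green olives over artificial diet differed by 3.16 ± 0.47 (SD, n = 4 arrays; 3.74, 2.61, 3.22 and 3.09), where the lowest value, of array 2, rests on 2 forward probes. For green over black olives it differed by 0.39 ± 0.10 (SD, n = 4 arrays; 0.38, 0.52, 0.40 and 0.27). The forward entry had the higher ratio on each of the 4 black olive arrays and on each of the 4 artificial diet arrays. Contig04633 was chosen for the largest mean ratio over artificial diet, so a higher forward mean there was fixed by the choice. No test was made of this difference.

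Over the array, 6664 contigs had an entry for each strand. The median absolute difference between the strands was 0.14 for green olives against artificial diet, 0.15 for green against black olives and 0.17 for black olives against artificial diet. A difference as large as that of contig04633 was found in 5 pairs for green olives against artificial diet, in 1082 for green against black olives and in 3 for black olives against artificial diet, contig04633 included. Contig04633 was chosen for its rise over artificial diet, so the counts for contrasts with artificial diet are a description. The count for green against black olives does not use the artificial diet channels. Both strands were called in 18 pairs (0.27%) for green against black olives. For green olives against artificial diet it was 25 pairs (0.375%), and for black olives against artificial diet 19 (0.285%). A single strand was called in 187, 74 and 63 pairs, in the same order. Where both strands were called, the direction was the same in each pair. Contig04633 was among the pairs with both strands called in all 3 comparisons, and so was contig12892. The forward call of contig04633 over artificial diet was favoured by its choice.

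The contigs most like contig04633 over the 16 channels were found by Pearson's r of log2 intensity among 13978 others with a signal in every channel of a regime. Rc_contig07171 had r = 0.997, contig12892 0.995, rc_contig03638 0.995, r_contig00541_rc 0.995 and rc_contig10898 0.987. Rc_contig04633 stood in place 28 with 0.931, and 62 contigs passed 0.9. The channels share arrays and dyes, with all green olive channels in Cy5, and no p-value is attached. R ignores the size of a difference: rc_contig10898 differed by 1.36 between green olives and artificial diet. By the root mean square difference in log2 ratio over the 8 arrays, the nearest were rc_contig07171 (0.304), contig12892 (0.519), r_contig00541_rc (1.46), rc_contig03638 (1.64) and rc_contig04969 (1.67), beside a median of 4.56. These are the same contigs as the next largest rises over artificial diet. The median depends on the size of the ratios of contig04633, which was chosen for a large one, and is no separate evidence of likeness.

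These contigs were picked for their likeness, so their fold changes are a description. Rc_contig07171 was at 1.88 for green against black olives, 5.95 for green olives against artificial diet and 4.06 for black olives against artificial diet. Contig12892 was at 1.91, 5.43 and 3.52 in the same order.

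For 3 other contigs of the study's tables, as for contig04633, the closest match listed is a bacterial protein, though not the same one. Contig07171 and contig03638 match a protein named pG1 of *Lactobacillus jensenii*, and contig09291 matches a transposase, an enzyme that moves mobile DNA, of *Serratia marcescens*. Contig04633 and these 3 contigs, each with its opposite strand, are 8 entries. Contig04633, chosen for its rise over artificial diet, and rc_contig04633 are thus counted in the following. The study's tables hold only contigs called on these samples, so this list is no independent evidence of a direction. Between green and black olives 5 of the 8, contig04633 and rc_contig04633 among them, were called higher in green olives, beside 1.74% of all contigs. None was called lower. Their median log2 fold change was 1.58, beside a median of 0.00 over all contigs. The 3 others, contig03638, contig09291 and rc_contig09291, were at 0.84, 0.45 and 0.76. Between green olives and artificial diet all 8 were called higher in green olives, beside 0.77% of all contigs, with a median of 3.11. Both the count and the median were favoured by the choice of contig04633 and of the listed contigs. That median includes contig09291, which was not well above background in artificial diet and has no measured fold there. Between black olives and artificial diet 4, contig04633 and rc_contig04633 among them, were called higher in black olives, beside 0.327% of all contigs, and none lower. The median was 1.35, again with contig09291 included.

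The strands of these contigs also differed in size of response. Contig07171 was 3.33 and its reverse strand 5.95 higher in green olives than in artificial diet, and contig03638 1.43 and its reverse strand 3.85. For contig04633 the entry listed with the match had the larger value, while for contig07171 and contig03638 it was the entry opposite to the listed one. Which strand holds the match was not examined. The strands of contig09291 were not compared over artificial diet, where contig09291 was well above background in 0 of 4 channels and its reverse strand in 3 of 4.

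**Figure D4:**
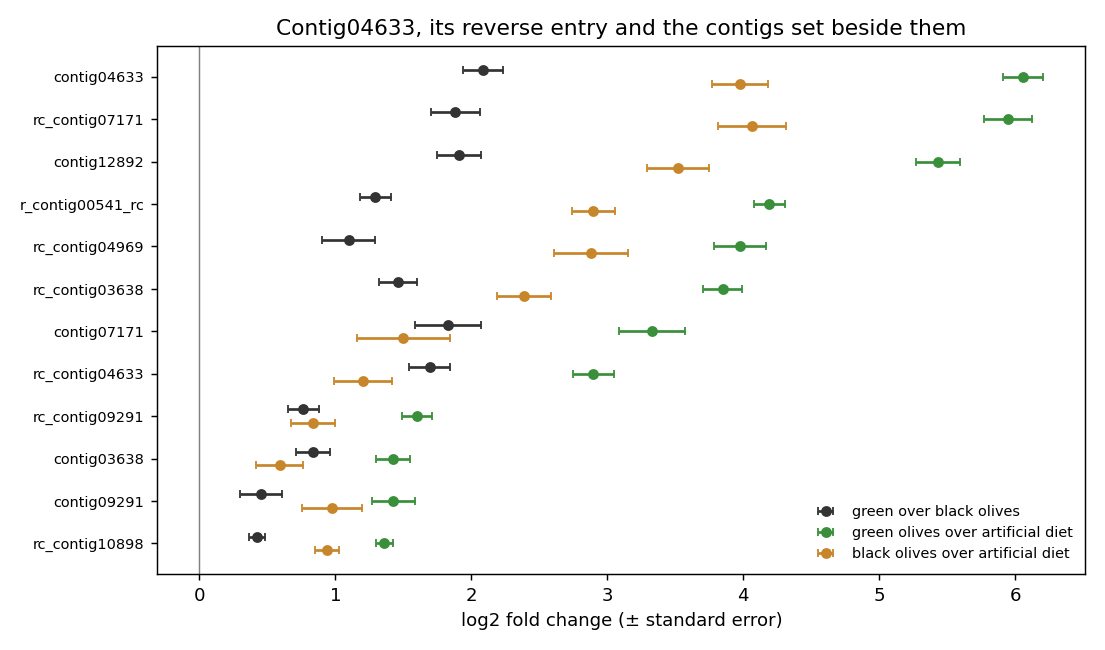
Log2 fold change with its standard error for contig04633, rc_contig04633 and the contigs named beside them, for green over black olives, green olives over artificial diet and black olives over artificial diet. All values lie above 0, those of contig09291 over artificial diet are fitted values of a contig not well above background there, and contig04633, rc_contig07171 and contig12892 exceed 5 only for green olives over artificial diet.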

How the data were processed

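The 2 entries and all lists were chosen with earlier results of these data known. The authors deposited the scanner output of 8 arrays, made with Feature Extraction 10.7.3.1 per the file headers (version 10.5 in the submitters' processing notes). It holds median intensities of spots and local background without normalization, processed intensities, log10 ratios, and flags of 0 or 1. The deposited value table holds the same log10 ratios, within 0.005 after rounding.

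From the median intensities, normexp background correction (offset 50), loess within arrays and Aquantile between arrays were run in limma 3.58.1 (R 4.3.3), as the methods state. The 1319 control spots were left out after background correction, and so were spots marked as outliers (46 to 128 an array). Spots of a probe, then probes of a contig, were averaged. One linear model with empirical Bayes statistics covered 8 arrays (6 residual and 2.21 prior degrees of freedom). P-values were Benjamini-Hochberg adjusted over 20516 contigs, and the steps were checked on simulated data. The methods describe 4 green olive replicates over the 8 arrays, so green olive channels may share pools, and p-values measure the spread between these arrays, whose number limits precision.

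Named contigs are the entries and their probes, the 5 next rises over artificial diet, the 5 nearest by each measure of likeness, and those with a bacterial match. The alternatives tried changed the background correction, normalization, probe average, filters, starting values, samples and model.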

Additional observations from a re-analysis of the deposited data

Results flagged for a closer look

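Among 23 groups of 4 or 8 values checked for a sample standing apart, 2 had one, and chance gives about 1 in 20. On the artificial diet arrays, array 1 gave the lowest log2 ratio of rc_contig04633, 2.41 against 3.03 to 3.09 on the other arrays, and the gap was 0.907 of the whole range. Its probe 3 showed the same array apart, at 2.06 against 2.99 to 3.05, with a gap of 0.944 of the range. Without array 1 the mean for rc_contig04633 was 3.06. That array lay in the other row of the slide from the remaining artificial diet arrays; with slide row in the model the mean for rc_contig04633 was 2.82.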

How the results depend on the processing

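Under 21 alternatives contig04633 kept its call between green and black olives, with log2 fold changes of 1.92 to 2.21 and adjusted p-values up to 0.0379, the highest with limma's treat, which tests against the threshold of 1. Rc_contig04633 kept its call in 20, at 1.53 to 1.81, and missed it with treat (1.69, adjusted p = 0.292). Skipping the Aquantile step could not change these values, since only log2 ratios were fitted. Leaving out an artificial diet array could not change the log2 fold changes between the olives. Green olives over artificial diet ranged over 5.85 to 6.33 for contig04633 and 2.77 to 3.06 for rc_contig04633, black olives over artificial diet over 3.79 to 4.25 and 1.04 to 1.37, and forward minus reverse over 2.97 to 3.36 and, against black olives, 0.33 to 0.48. Apart from black olives over artificial diet, these moved by less than the SD between arrays. For contig04633 in green olives over artificial diet that SD was 0.29, or 0.08 with the uneven spot kept. Black olives over artificial diet has no SD between arrays. There the highest value of contig04633, 4.25, lay further from its main value of 3.97 than the standard error of 0.21.

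The number of contigs called moved more. For green against black olives, green olives against artificial diet and black olives against artificial diet it was 462, 216 and 192, and 982, 639 and 314 with processed intensities, 19, 38 and 17 with treat. It was 961 and 613 for the green olive comparisons with the deposited value table. Adjusting for slide row gave 122 for black olives against artificial diet. Leaving out single arrays gave 393 to 536, 129 to 235 and 118 to 206. The lowest for green olives against artificial diet came without artificial diet array 4 (129), and for black olives against artificial diet without artificial diet arrays 1 (123) and 3 (118).

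Replicate numbers did not pair the arrays: same-numbered green olive channels correlated at -0.11, -0.60, -0.15 and 0.85, and 1 of 4 correlated best with its own number. With the replicate block, 120 contigs were called for green olives against artificial diet and 34 for black olives against artificial diet, and both entries kept their calls against black olives (limma adjusted p = 0.0059 and 0.0058). The cause of these shifts was not tested.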

Other observations

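The level of contig04633 in green olives was 15.77, 15.14, 15.85 and 15.74 on black olive arrays 1 to 4 and 14.79, 15.28, 15.71 and 15.67 on artificial diet arrays 1 to 4. The 15.28 of array 2 rests on 2 probes, and was 15.78 with the spot marked as uneven kept. The lowest channels of the sets, 15.14 and 14.79, were black olive array 2 and artificial diet array 1, whose green olive channels deviated together over all contigs compared (r = 0.90). Rc_contig04633 was lowest on the same arrays, at 14.51 and 14.63.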
